A study of Homo sapiens with 32 samples.

Results

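The genes described here are a module of the actomyosin cytoskeleton: actins and transgelins, the chains of non-muscle myosin II, tropomyosins, calponins and caldesmon, adhesion plaque and crosslinking proteins, actin assembly factors, small GTPases with their kinases, and the transcription factor SRF. The module is a list of 37 gene symbols, all of which have a row among the 19345 genes of the deposited table. A test needed at least 1 TPM (a level per transcript length, as a share of a fixed total) in at least 6 libraries. That left 12221 genes and 35 of the 37 members. ACTA2 and CFL1 did not reach it.

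RNA came from EPC2, an esophageal epithelial line made immortal with telomerase, of WT genotype in every group. There were 10 libraries of monolayer cells taken at day 0 before seeding (D0), 9 of spheroids at day 3 (D3), 7 of untreated spheroids at day 11 and 6 of day 11 spheroids that received IL-13 at 20 ng/ml from day 3. For spheroids, 40000 cells were seeded in 20 µl of undiluted Matrigel, a basement membrane gel, in keratinocyte medium with 0.6 mM CaCl2. For the first 3 days that medium held 10 µM Y27632, an inhibitor of the kinases ROCK1 and ROCK2, and it was left out afterwards. All 3 spheroid groups therefore shared the gel, the calcium and the inhibitor of the first 3 days. The labels describe no medium for the monolayers. Against monolayers, the effects of inhibitor, gel, calcium and time cannot be told apart. Between D3 and D11, the effects of inhibitor withdrawal and of time cannot be told apart either. The labels give 2 independent experiments as batches, and nothing ties libraries to separate cultures within a batch, so p-values measure the spread between these libraries, part of which may be technical.

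Actin monomers assemble into filaments, and myosin II pulls on those filaments to make contractile bundles that end at adhesion plaques. RhoA acts through ROCK1 and ROCK2 to raise phosphorylation of the myosin light chain. Free actin monomers hold back the MRTF cofactors of SRF, so filament assembly releases them to the nucleus, where SRF binds a short element called the CArG box near many genes of the cytoskeleton. In stratified epithelia such as the esophagus, this machinery is known for its part in adhesion of basal cells and in cell shape.

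At D3, 2 libraries did not sit with their labelled batch. Library 4, labelled batch 1, correlated at a mean r of 0.991 across genes with batch 2 libraries of D3 and at 0.969 with those of batch 1. Library 7, labelled batch 2, correlated at 0.991 with batch 1 and at 0.971 with batch 2. Counts are given with and without them. Changes of single members within a batch follow the labels and include both libraries. In every group all 7 basal epithelial markers listed, KRT5 and KRT14 among them, were present. Defining markers of other types were near 0: 8 of 10 for smooth muscle and pericytes, 8 of 9 for fibroblasts, 4 of 6 for immune cells and 4 of 4 for endothelium never reached 1 TPM in any library, and LMOD1, COL1A2, COL3A1 and PECAM1 were listed at 0 throughout. The exceptions were NOTCH3 and CSPG4, COL1A1, and CD68 and CD14.

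The module took a smaller share of the transcripts in spheroids than in monolayers. Its 37 genes summed to 1.38% ± 0.166 of all TPM in monolayers (SD, n = 10), 0.668% ± 0.0648 at D3 (SD, n = 9), 0.577% ± 0.0224 in untreated D11 spheroids (SD, n = 7) and 0.561% ± 0.0276 with IL-13 (SD, n = 6). The lowest monolayer library, at 1.21%, stood above the highest spheroid library, at 0.759%. Other transcripts moved as well, since keratin genes summed to 3.03% of TPM in monolayers, 10.3% at D3 and 15.8% in untreated D11 spheroids, and mitochondrially encoded genes to 47.6%, 47.8% and 21.9%. The 6 suprabasal markers listed summed to a median of 0.7, 474.3 and 4988.9 TPM in the same groups, with no overlap. Most of the D11 sum was SPRR3, at 3395 to 5101 TPM. From D3 to D11 SPRR3, IVL, CRNN and TGM3 rose with no overlap. KRT13 went the other way, from a range of 24.7 to 105.4 TPM to 8.3 to 16.2. KRT4 was at 16 to 128.4 TPM and then 12.3 to 17.7. The part of these markers in the members' changes was not tested. TPM values are shares of a fixed total, so the members' counts in each comparison are also read after median-of-ratios scaling, which sets the typical gene to no change. In bulk RNA, fewer cells of a type and less RNA per cell cannot be told apart.

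**Figure D1:**
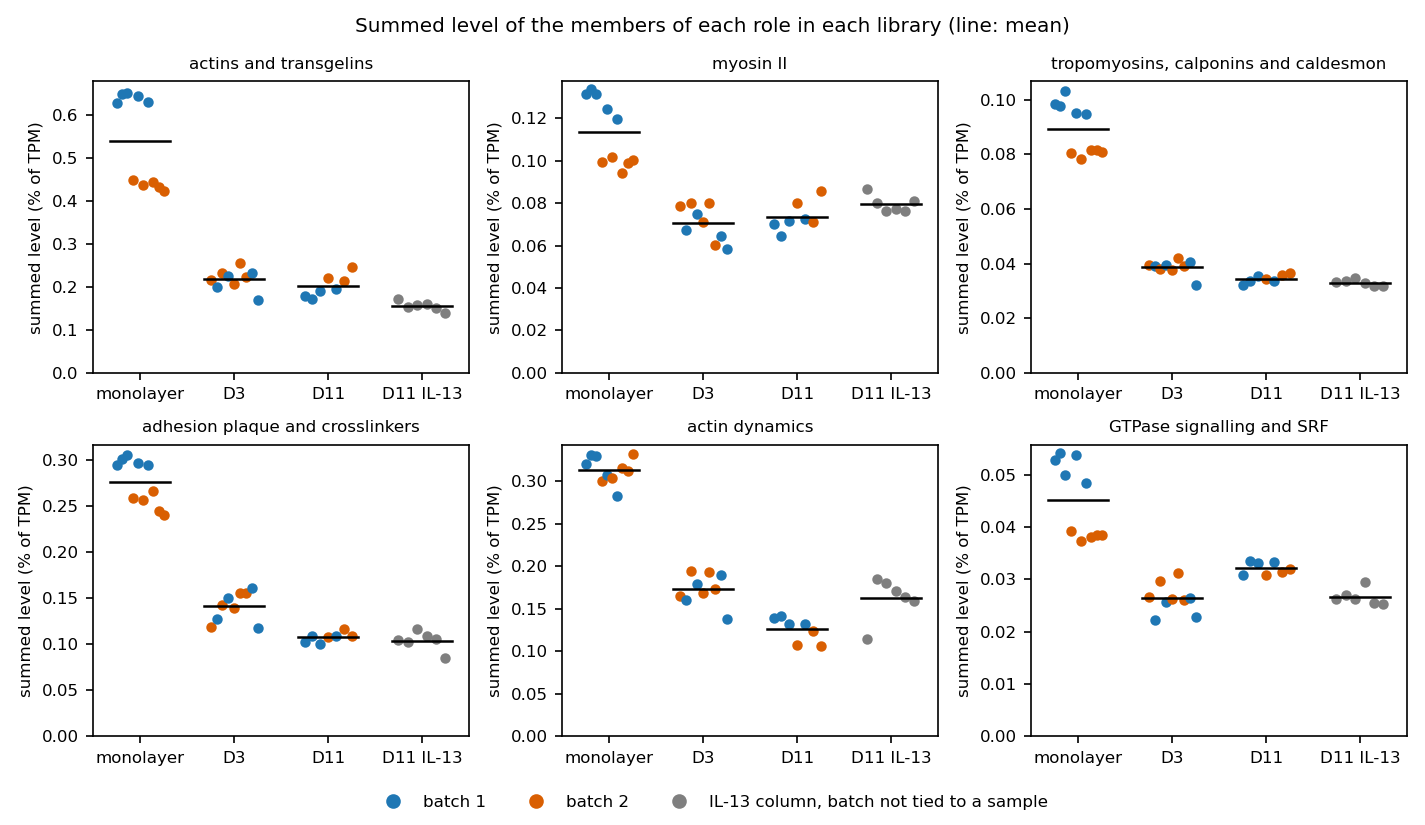
Summed level of the members of each of 6 roles as a percentage of all TPM (y axis) in each library, by group (x axis), with the mean as a line and the 2 batches in colour. In all 6 panels every monolayer library lies above every spheroid library.

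From monolayer to D3, 33 of the 35 tested members fell, 1 rose and 1 did not pass the test (limma, adjusted p under 0.05 over all genes). Of all genes tested, 68.2% fell and 12.7% rose, so a fall was the common result. The median change on the log2(TPM + 1) scale was -0.90 over the members and -0.44 over all genes. For 28 of the 35 members no D3 library entered the monolayer range, against 44.3% of all genes. After median-of-ratios scaling, which moved the median of all genes by 0.43, 26 members fell and 4 rose, where 33.1% and 33.2% of all genes did. Without D3 libraries 4 and 7, 32 fell and 1 rose. MYL9 fell the most and ENAH alone rose.

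Between D3 and untreated D11, 17 members fell, 8 rose and 10 did not pass. The background was 35.8% lower and 33.6% higher, and the median change was -0.19 over the members and -0.02 over all genes. TPM2, FLNA, ACTB, SRF and VCL had the largest falls, and RND3, FHL2, CNN3, TAGLN2 and TAGLN the largest rises. Libraries did not overlap for 16 members, against 38.0% of all genes. Median-of-ratios scaling left the counts at 17 lower and 8 higher, where 35.3% and 37.8% of all genes were. The mitochondrial share ran from 39.1% to 57.1% at D3 and from 14.8% to 27.9% at D11, with no overlap. When those genes were removed and the rest rescaled, the median of all genes moved by -0.47 and 29 members were lower and 3 higher, where 64.8% and 13.4% of all genes were, so the count of rises depends on which genes the total is taken over. RND3, FHL2 and CNN3 were the 3 still higher. The rises of TAGLN, TAGLN2 and MYL12A then did not pass, and RHOA and RHOB were called lower. Without D3 libraries 4 and 7, 18 fell and 8 rose.

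Against monolayers, untreated D11 spheroids had 29 members lower, 2 higher and 4 that did not pass, where 63.5% of all genes were lower and 21.0% higher. The 2 higher were TAGLN2, at 0.37, and RND3, at 0.44. TAGLN2 did not pass in batch 1 alone, at 0.14 (limma adjusted p = 0.225). RND3 did not pass in batch 2 alone, at -0.19 (limma adjusted p = 0.239). Without mitochondrial genes TAGLN2 was called lower, at -0.21. The median change was -1.21 over the members and -0.48 over all genes. Members whose libraries did not overlap numbered 26, against 58.7% of all genes. The scaling by median of ratios moved all genes by 0.48 and left 23 members lower and 6 higher, where 40.2% and 40.1% of all genes were. These 3 comparisons share libraries, so their counts are not independent of each other.

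**Figure D2:**
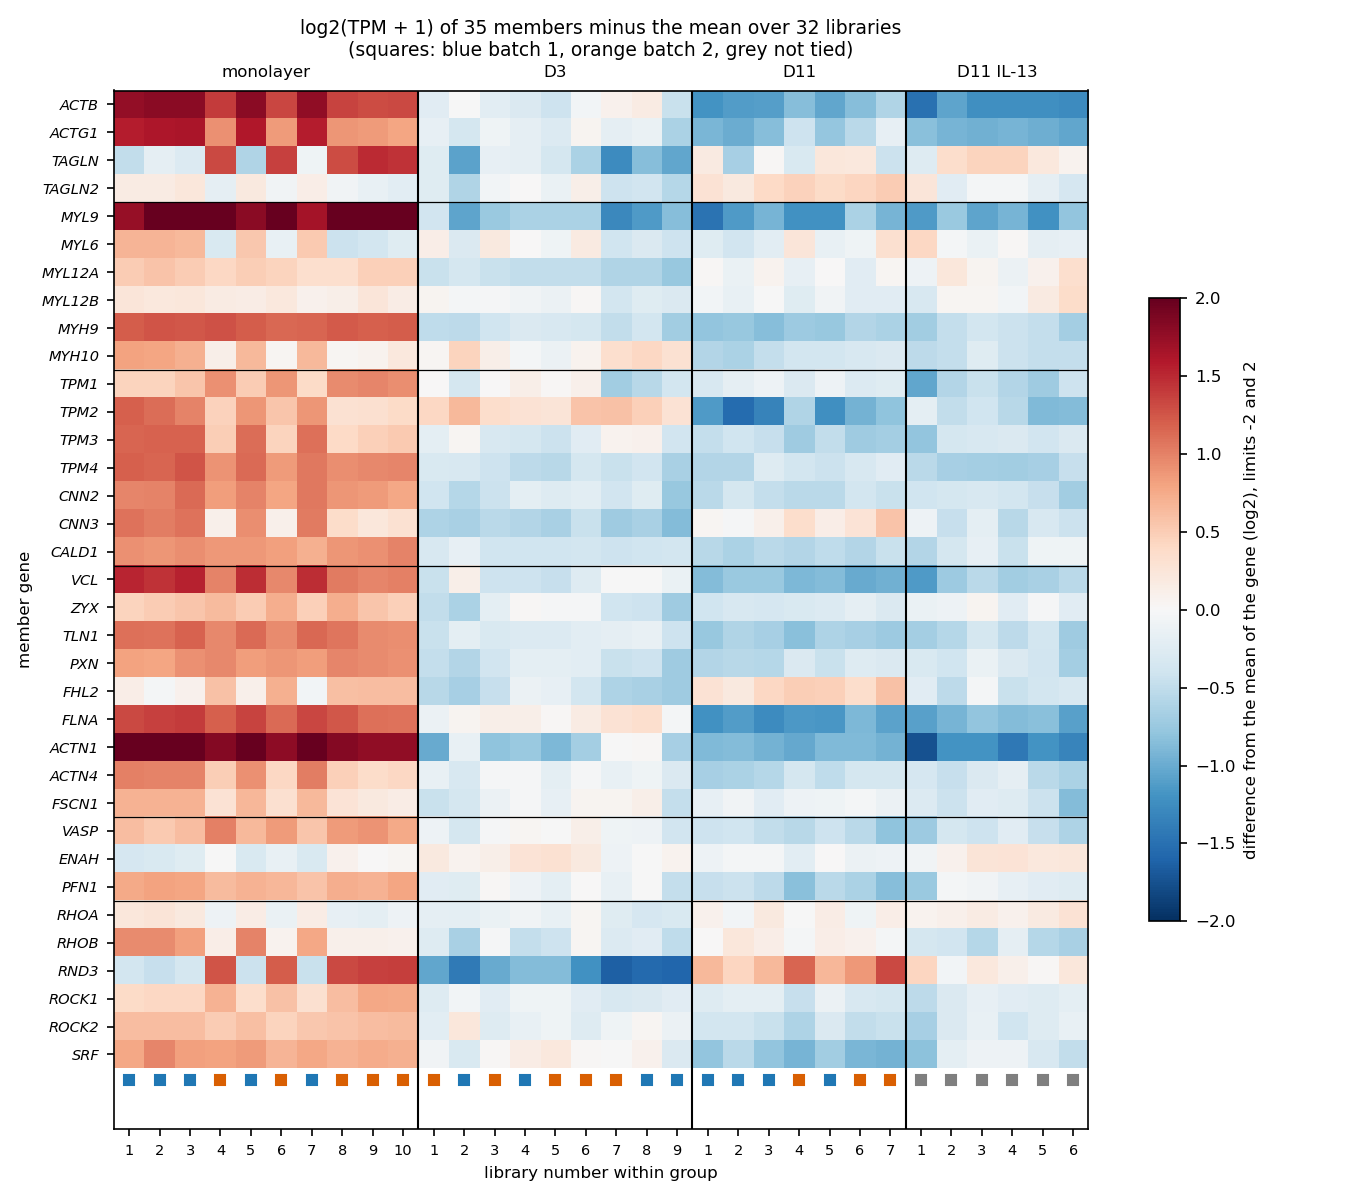
Level of the 35 tested members (rows, by role) in each of 32 libraries (columns) as the difference of log2(TPM + 1) from the gene's mean, with colours capped at -2 and 2 and squares for the batch. MYL9, ACTN1 and ACTB are highest in the 10 monolayers, and RND3 is lowest in the 9 D3 libraries.

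SRF, the factor that binds CArG boxes, was found at chr6:43171299-43181507 on the plus strand of hg38 (GENCODE release 29). Its monolayer libraries ran from 72.4 TPM through a median of 76.8 to 88.5. D3 spheroids ran from 36 through 45.5 to 51.6, and untreated D11 spheroids from 22.6 through 25.4 to 30.6. Each of these steps left no overlap between groups. The change was -0.80 ± 0.08 (SE) at D3 (limma adjusted p = 2.67e-10) and -0.79 ± 0.09 from D3 to D11 (adjusted p = 4.44e-09). Both falls were called after median-of-ratios scaling too, at -0.26 and -0.74. Over the whole course SRF fell by 1.58 on the log2 scale.

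The promoters of the members were searched for the CArG box in RefSeq windows from 250 bases before to 50 after each transcript start (GRCh38.p14), on both strands, where the element reads as the same pattern. Windows were found for 33 members, not for ACTB, FSCN1, TAGLN and MYL9. Of the 33, 9 held a box (27.3%), against 1.56% of 9532 tested genes with a window. Members had a mean of 1.79 windows per gene and tested genes 1.43. By window, 12 of 59 held a box (20.3%), against 1.15% of 13661. The module is built around SRF, so the difference in shares is a description of the list. The sequences are shown because SRF is itself among the genes with a box. They read 5′ to 3′ on the strand of the gene, with the box in capitals.
SRF, chr6:43171019-43171268, plus strand, upstream of the annotated gene: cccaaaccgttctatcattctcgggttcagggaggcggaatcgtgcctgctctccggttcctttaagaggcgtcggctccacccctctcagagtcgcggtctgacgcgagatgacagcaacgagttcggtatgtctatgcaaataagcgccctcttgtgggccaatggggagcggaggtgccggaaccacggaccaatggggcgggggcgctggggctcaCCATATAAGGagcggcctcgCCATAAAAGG
ACTG1, chr17:81512874-81512903, minus strand, over an annotated exon of the gene: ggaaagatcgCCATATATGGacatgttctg
CNN2, chr19:1026489-1026558, plus strand, upstream of the gene: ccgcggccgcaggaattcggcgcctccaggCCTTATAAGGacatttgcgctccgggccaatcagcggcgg
TPM4, chr19:16067335-16067404, plus strand, inside the gene and outside its exons: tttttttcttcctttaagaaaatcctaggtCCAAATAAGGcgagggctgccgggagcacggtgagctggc
ACTN1, chr14:68977698-68977767, minus strand, inside the gene and outside its exons: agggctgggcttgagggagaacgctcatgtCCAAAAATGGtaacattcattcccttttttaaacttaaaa
FLNA, chrX:154374709-154374738, minus strand, upstream of the gene: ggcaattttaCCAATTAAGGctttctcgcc
FHL2, chr2:105438575-105438644, minus strand, upstream of the gene: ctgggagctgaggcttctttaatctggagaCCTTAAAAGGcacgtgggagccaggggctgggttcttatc
ROCK2, chr2:11345471-11345540, minus strand, inside the gene and outside its exons: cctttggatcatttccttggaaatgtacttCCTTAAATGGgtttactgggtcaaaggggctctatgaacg
RND3, chr2:150487748-150487777, minus strand, inside the gene and outside its exons: ctcccaggctCCATAAAAGGggaggaggca

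The SRF window held 2 boxes, which start 30 and 10 bases before the RefSeq transcript start of that window. This start lies upstream of the GENCODE gene start given above. The FLNA stretch also overlaps an annotated exon of another gene, AC245140.3. FHL2 held a box in the windows of more than 1 start. All 9 genes fell from monolayer to D3, as did 33 of the 35 tested members, so that count does not set them apart. From D3 to D11 they went different ways: RND3 and FHL2 rose, SRF, ACTG1, ACTN1, FLNA and ROCK2 fell, and CNN2 and TPM4 did not pass as deposited. Without mitochondrial genes CNN2 and TPM4 were called lower, at -0.68 and -0.55. A match is a stretch of letters and no measurement of binding.

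RND3 (chr2:150468195-150539011, minus strand, hg38), an atypical small GTPase that opposes RhoA and ROCK1, had the largest rise of the module. Its 9 D3 libraries ran from 4.6 through 6.5 to 8.5 TPM, and the 7 untreated D11 libraries from 22.4 through 26.6 to 42.4, with no overlap. The rise was 2.18 ± 0.19 on the log2 scale, 4.52-fold (limma adjusted p = 1.3e-11), and it was 1.96 in batch 1 and 2.27 in batch 2. The 10 monolayer libraries ran from 11.6 to 44.3 TPM and split by batch, from 11.6 to 12.6 in batch 1 and from 39.2 to 44.3 in batch 2. The change to D3 was accordingly -0.94 in batch 1 and -2.46 in batch 2, and the difference between batches passed its test (adjusted p = 8.87e-07). Untreated D11 spheroids therefore stood above the monolayers in batch 1, by 1.01, and not in batch 2, at -0.19. The pooled rise of 0.44 over monolayers (adjusted p = 0.0277) describes neither batch, and it was lost when any of 8 single libraries was left out, with adjusted p between 0.0524 and 0.0571.

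The other GTPase and kinase genes moved less. RHOA, the GTPase that activates ROCK, ran from 56.7 to 78.1 TPM in monolayers, 51.4 to 67.2 at D3 and 61.7 to 74.8 in untreated D11 spheroids, so all groups overlapped. Its fall at D3 was -0.19 ± 0.06 (adjusted p = 0.00501), which turned to a rise of 0.34 after median-of-ratios scaling and was 0.01 in batch 2 alone. RHOB, a small GTPase induced early by many stimuli, had means of 266 ± 77.2, 147 ± 23.5 and 191 ± 13.3 TPM (SD, n = 10, 9 and 7). It fell by 0.79 and then rose by 0.35 (adjusted p = 0.0169), and the D3 change was -1.36 in batch 1 and -0.29 in batch 2. After median-of-ratios scaling the D3 change was -0.25 and did not pass (adjusted p = 0.09). The rise to D11 did not pass in batch 2 alone, at 0.19 (adjusted p = 0.0797), with a replicate block, at 0.29 (adjusted p = 0.075), with array weights, at -0.18, or after quantile normalization, at -0.01. Without mitochondrial genes it was a fall, at -0.24 (adjusted p = 0.0473). The kinases both fell at D3, ROCK1 from 7.17 ± 0.993 to 3.91 ± 0.333 TPM and ROCK2 from 6.11 ± 0.288 to 3.48 ± 0.509, with no overlap in either. The log2 differences were -0.73 and -0.67, and -0.27 and -0.22 after median-of-ratios scaling. Up to day 3 the spheroids had been kept with the inhibitor of these kinases. From D3 to D11, a step that joins its withdrawal with time, ROCK2 fell further, by 0.35. ROCK1 was then at 3.67 ± 0.368 TPM, a difference of -0.07 that did not pass as deposited (adjusted p = 0.408). Without mitochondrial genes ROCK1 was called lower, at -0.58, and with array weights it was called higher, at 0.18. Of ROCK1 transcript 50-mers, 13.7% also occur in other genes, mostly its pseudogene ROCK1P1, so its level is less certain.

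The cytoplasmic actins ACTB and ACTG1 were among the most abundant members. ACTB monolayer libraries ran from 1816 through 2207 to 2556 TPM, D3 libraries from 537 through 632 to 817, and untreated D11 libraries from 320.0 through 355 to 482. No library of one group reached the range of another. On the log2(TPM + 1) scale ACTB fell by 1.72 ± 0.10 at D3, a linear ratio of 0.304. It then fell by 0.82 ± 0.11 to D11 (limma adjusted p = 2.38e-16 and 4.64e-08). ACTG1 fell from 2401 ± 640 TPM (SD, n = 10) to 859 ± 108 (n = 9) and 638 ± 140 (n = 7), so it fell by 1.44 and then fell by 0.46. The D3 and D11 ranges of ACTG1 overlapped. Its monolayer level was 2933 to 3075 TPM in batch 1 and 1718 to 1859 in batch 2, so the D3 change was -1.92 in batch 1 and -0.99 in batch 2. Of the ACTB 50-mers 10.3% and of the ACTG1 50-mers 3.58% also occur in other genes, many of them processed pseudogenes.

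TAGLN and TAGLN2, which encode the actin bundlers transgelin and transgelin-2, did not move alike. TAGLN monolayer libraries ran from 4.80 to 7.30 TPM in batch 1 and from 20.9 to 23.9 in batch 2. At D3 the range was 2.70 to 6.90 TPM and in untreated D11 spheroids 4.60 to 9.30. The pooled change at D3 was -1.21 ± 0.22, with -1.92 in batch 2 and -0.46 in batch 1, where it did not pass (adjusted p = 0.0586). TAGLN2 was much more abundant, at 782 ± 92.3, 653 ± 115 and 1003 ± 73.8 TPM. It fell by 0.27 at D3, a change that median-of-ratios scaling turned to 0.27 higher, and rose by 0.64 to D11 with no overlap. That rise did not pass without mitochondrial genes, at 0.04 (adjusted p = 0.546), or after quantile normalization, at -0.05 (adjusted p = 0.572). The rise of TAGLN in that step, 0.63 ± 0.24 (adjusted p = 0.0216), was lost without any of untreated D11 libraries 1, 3 or 5, with adjusted p between 0.0507 and 0.0595. It also did not pass without mitochondrial genes (0.13), without a batch term (0.54) or in batch 2 alone (0.36). ACTA2, the smooth muscle actin, stayed between 0 and 0.8 TPM in every library. The smooth muscle markers DES and ACTG2 were listed at 0.1 TPM or less in the same libraries.

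Among the myosin II genes, the regulatory light chain MYL9 (chr20:36541484-36551447, plus strand, hg38) was near 1 TPM in all spheroids. Its 10 monolayer libraries ran from 12.2 through 17.6 to 20.3 TPM, and its 9 D3 libraries from 0.7 through 1.5 to 2.2. Untreated D11 spheroids ran from 0.5 through 0.9 to 1.7 TPM. Every monolayer library was above every spheroid library. The difference was -2.90 ± 0.10 at D3 (limma adjusted p = 1.23e-21), the largest fall of the module, and it was -2.78 in batch 1 and -3.01 in batch 2. It remained at -2.47 after median-of-ratios scaling. The added pseudocount of 1 TPM compresses this change, since the means were 16.7 and 1.41 TPM.

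MYL12A and MYL12B, which encode regulatory light chains closely related to that of MYL9, stayed abundant. MYL12A went from 223 ± 11.9 TPM to 113 ± 8.98 and then 157 ± 12.8, so it fell by 0.97 and then rose by 0.46. The later change was -0.13 without mitochondrial genes (adjusted p = 0.13) and 0.12 after quantile normalization (adjusted p = 0.0844), and passed in neither. MYL12B fell by 0.29, from 156 ± 5.69 to 127 ± 12.8 TPM, and was 0.25 higher after median-of-ratios scaling. Of their 50-mers, 9.41% and 9.42% also occur elsewhere, mostly in the other gene. The essential light chain MYL6 was the member that did not pass at D3, at -0.25 ± 0.15 (adjusted p = 0.122). The change was -0.85 in batch 1 and 0.30 in batch 2, opposite in direction, and each passed alone. Monolayer MYL6 was 571 to 638 TPM in batch 1 and 294 to 359.9 in batch 2.

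The heavy chains divided. MYH9, the main non-muscle myosin heavy chain here, fell from 268 ± 7.32 TPM to 85.0 ± 7.30 at D3 and 69.1 ± 4.53 at D11. The D3 change of -1.65 ± 0.05 was -1.68 in batch 1 and -1.63 in batch 2. MYH10, the other heavy chain of the list, was low throughout, at 4.29 ± 1.22, 3.43 ± 0.626 and 1.89 ± 0.261 TPM. Its D3 change of -0.22 (adjusted p = 0.0286) was lost when any of 5 single libraries was left out, with adjusted p between 0.0521 and 0.0819, and turned to 0.21 higher after median-of-ratios scaling. From D3 to D11 it fell by 0.64, with no overlap.

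**Figure D3:**
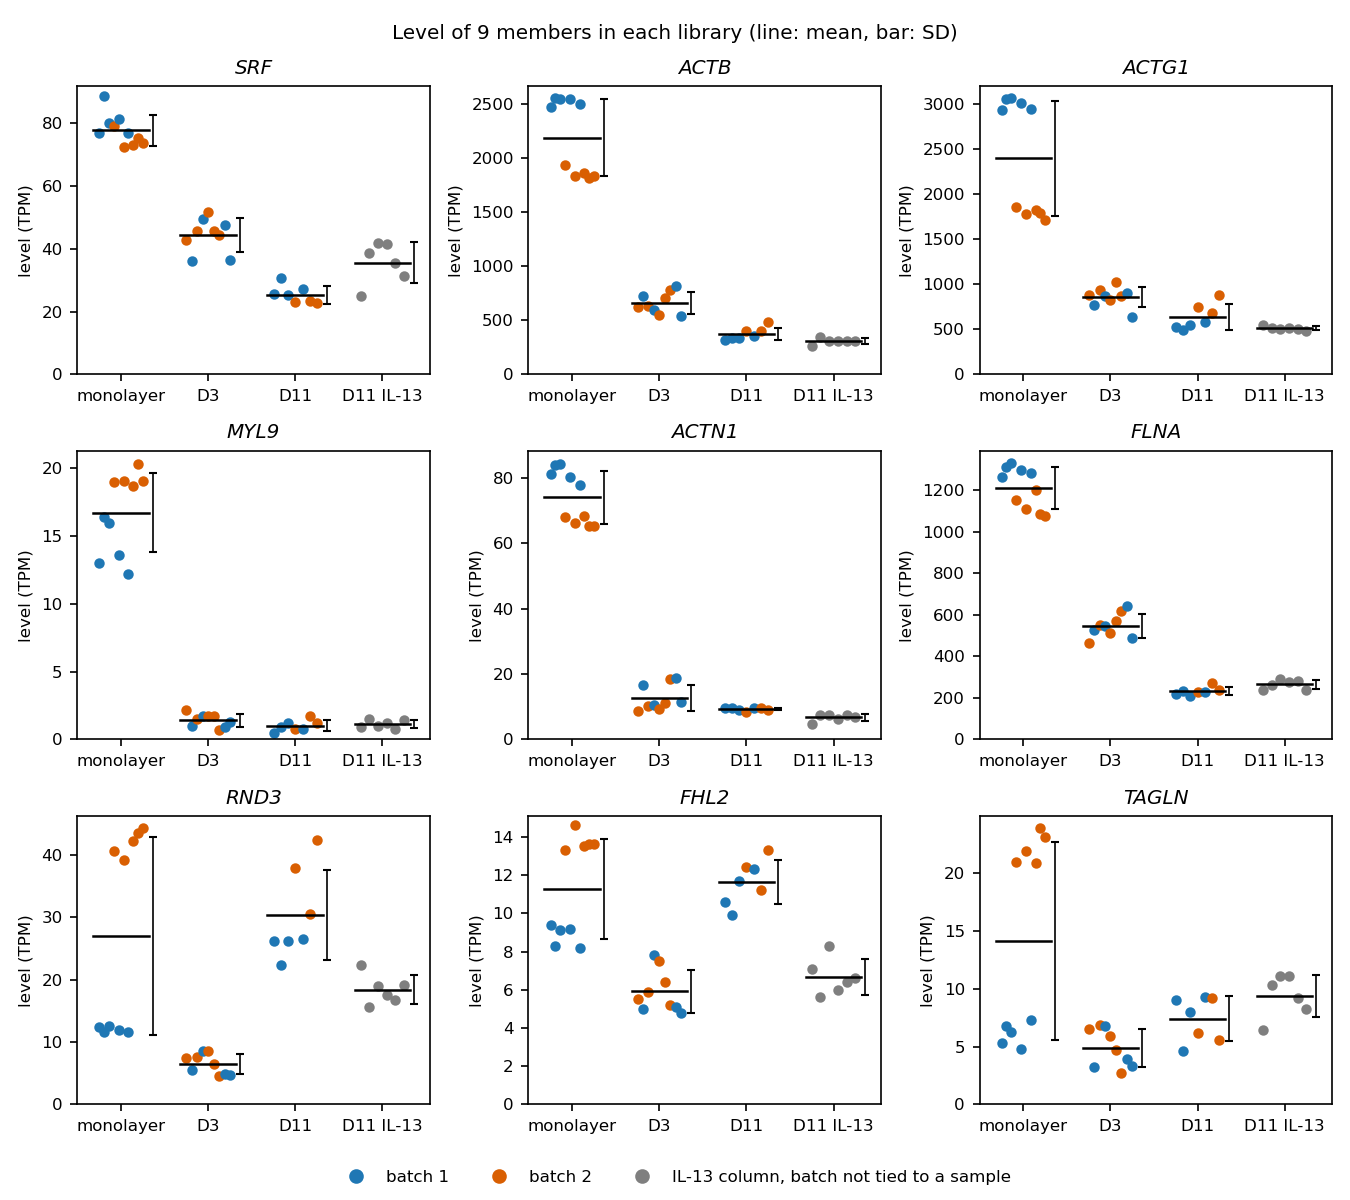
Level in TPM (y axis) of 9 members in each library, by group (x axis), with the mean as a line, the SD as a bar and the 2 batches in colour. MYL9 is between 0.5 and 2.2 TPM in the D3 and untreated D11 libraries, and RND3 and TAGLN split by batch among the monolayers.

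All 7 tropomyosins, calponins and caldesmon fell at D3, as did 68.2% of all genes, with a median change of -1.24. Tropomyosins lie along the actin filament and set which proteins reach it. The changes were -1.48 ± 0.06 for TPM4, -0.98 for TPM3 and -0.90 for TPM1, each with no overlap. Of TPM4 50-mers 23.1% also occur in other transcripts, the highest share of the module. TPM2 took another course, with a late fall. It ran from 50.1 to 93.9 TPM in monolayers, 48.4 to 63.7 at D3 and 13.3 to 26.3 in untreated D11 spheroids. Its early change of -0.28 (adjusted p = 0.0448) was lost when any of 11 single libraries was left out, and was positive after median-of-ratios scaling, at 0.26, and in batch 2 alone, at 0.03. Its change of -1.52 ± 0.14 from D3 to D11 was the largest of that step (adjusted p = 4.21e-11).

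The calponins and caldesmon bind actin and tropomyosin and restrain myosin. CNN2 fell from 327 ± 27.5 to 132 ± 16.3 TPM and was then at 124 ± 7.02. The later difference did not pass as deposited (adjusted p = 0.297). It was called lower without mitochondrial genes, at -0.68, after quantile normalization, at -0.39, and with array weights, at -0.27. Without D3 library 9 it also passed, at -0.15. CALD1 fell from 14.7 ± 0.775 to 5.67 ± 0.367 TPM, by 1.24 ± 0.05, with changes of -1.19 and -1.27 in the batches. CNN3 fell and then rose. It ran from 22.5 to 45.7 TPM in monolayers, 11.1 to 15.1 at D3 and 20.7 to 31.7 in untreated D11 spheroids, with no overlap at either side of D3. Its rise of 0.82 ± 0.13 (adjusted p = 3.27e-06) was 0.75 in batch 1 and 0.99 in batch 2, and with array weights it was 0.19 and did not pass (adjusted p = 0.204). Against monolayers untreated D11 spheroids were lower, at -0.43 (adjusted p = 0.00324). That difference was -0.97 in batch 1, where means were 44.0 and 22.0 TPM, and 0.18 in batch 2, where it did not pass (adjusted p = 0.0714), and the batches differed (interaction adjusted p = 1.46e-08).

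All 9 adhesion plaque and crosslinking genes fell at D3 with no overlap between groups, where 68.2% of all genes fell and 44.3% had no overlap, and their median change was -1.15. ACTN1 (chr14:68874143-68979440, minus strand, hg38), an alpha-actinin that crosslinks filaments at plaques and bundles, ran from 65.1 through 73.0 to 84.2 TPM in monolayers and from 8.70 through 11.1 to 18.8 at D3. In untreated D11 spheroids it ran from 8.5 through 9.5 to 9.6 TPM. The spheroid libraries never came within reach of the monolayers. The D3 change was -2.47 ± 0.10 (limma adjusted p = 1.66e-19), -2.46 in batch 1 and -2.48 in batch 2 by the labels. D3 library 4 was at 10.6 TPM and library 7 at 18.4. The other D3 libraries ran from 11.3 to 18.8 TPM in batch 1 and from 8.7 to 11.1 in batch 2. The likeness of the batches therefore depends on libraries 4 and 7. Its paralog ACTN4 fell less, by 0.85, from 80.4 ± 16.4 to 43.3 ± 3.49 TPM.

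Vinculin, talin and paxillin join integrins to actin, and zyxin marks mature plaques under tension. VCL fell from 22.8 ± 4.36 to 7.56 ± 1.34 and 4.41 ± 0.376 TPM, with changes of -1.45 and -0.69 and no overlap at either step. TLN1 fell from 139 ± 9.15 to 55.1 ± 3.94 and 40.8 ± 2.41 TPM, also at both steps. PXN and ZYX fell at the first of them, with changes of -1.30 and -0.89, and their changes to D11 of -0.0029 and 0.04 did not pass as deposited (adjusted p = 0.973 and 0.714). Without mitochondrial genes PXN and ZYX were called lower at D11 than at D3, at -0.59 and -0.56. They were called lower after quantile normalization as well, at -0.16 and -0.29. Whether the late changes of these 4 genes differ from each other was not tested. FLNA, the filamin that crosslinks actin into networks, ran from 1074 through 1233 to 1332 TPM in monolayers, 463 through 546 to 640.0 at D3 and 210 through 227 to 270 in untreated D11 spheroids. Its steps of -1.15 ± 0.06 and -1.24 ± 0.07 were both far outside the spread (limma adjusted p = 2.97e-16 and 1.26e-15).

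FHL2, a LIM protein of adhesions that also enters the nucleus, and FSCN1, which bundles filaments in protrusions, differed from these. FHL2 ran from 8.20 through 11.3 to 14.6 TPM in monolayers and from 4.8 through 5.5 to 7.8 at D3. In untreated D11 spheroids it ran from 9.90 through 11.7 to 13.3 TPM, above every D3 library. Its changes of -0.83 and 0.92 ± 0.09 left a difference from monolayers of 0.09, which did not pass (adjusted p = 0.383). That difference was 0.30 in batch 1 (adjusted p = 0.024), where D11 libraries at 9.90 to 12.3 TPM lay above monolayers at 8.20 to 9.40, and -0.15 in batch 2 (adjusted p = 0.148), and the batches differed (interaction adjusted p = 0.0166). It passed at 0.63 after median-of-ratios scaling, 0.56 after quantile normalization and 0.25 with array weights, and was -0.46 without mitochondrial genes. FSCN1 went from 821 ± 132 to 536 ± 82.9 TPM and was then at 544 ± 23.2. From D3 to D11 it was called lower without mitochondrial genes, at -0.58, and after quantile normalization, at -0.61. After median-of-ratios scaling its D3 change was -0.06 and did not pass (adjusted p = 0.62).

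Of the actin assembly factors, PFN1 and VASP fell and ENAH rose at D3. PFN1, the profilin that feeds monomers to growing filaments, was the most abundant member of all, at 3034 ± 161, 1676 ± 179 and 1217 ± 141 TPM. VASP, which lengthens filaments, went from 97.7 ± 11.4 to 54.5 ± 6.23 and 40.4 ± 3.83 TPM. ENAH belongs to the same protein family and had 3.93 ± 0.587, 4.94 ± 0.532 and 4.14 ± 0.257 TPM. Its rise of 0.27 ± 0.06 at D3 (adjusted p = 0.000241) was 0.40 in batch 1 and 0.14 in batch 2, where it did not pass alone (adjusted p = 0.0872), and the groups overlapped. CFL1, the cofilin that severs filaments, was listed at 0.4 TPM or less in every library and at 0 in some of each group. Its close relative CFL2 had 52.2 ± 15.4 TPM in monolayers and 20.6 ± 6.62 at D3. A value at or near 0 in this table may be a failed estimate, so no change of CFL1 is given.

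**Figure D4:**
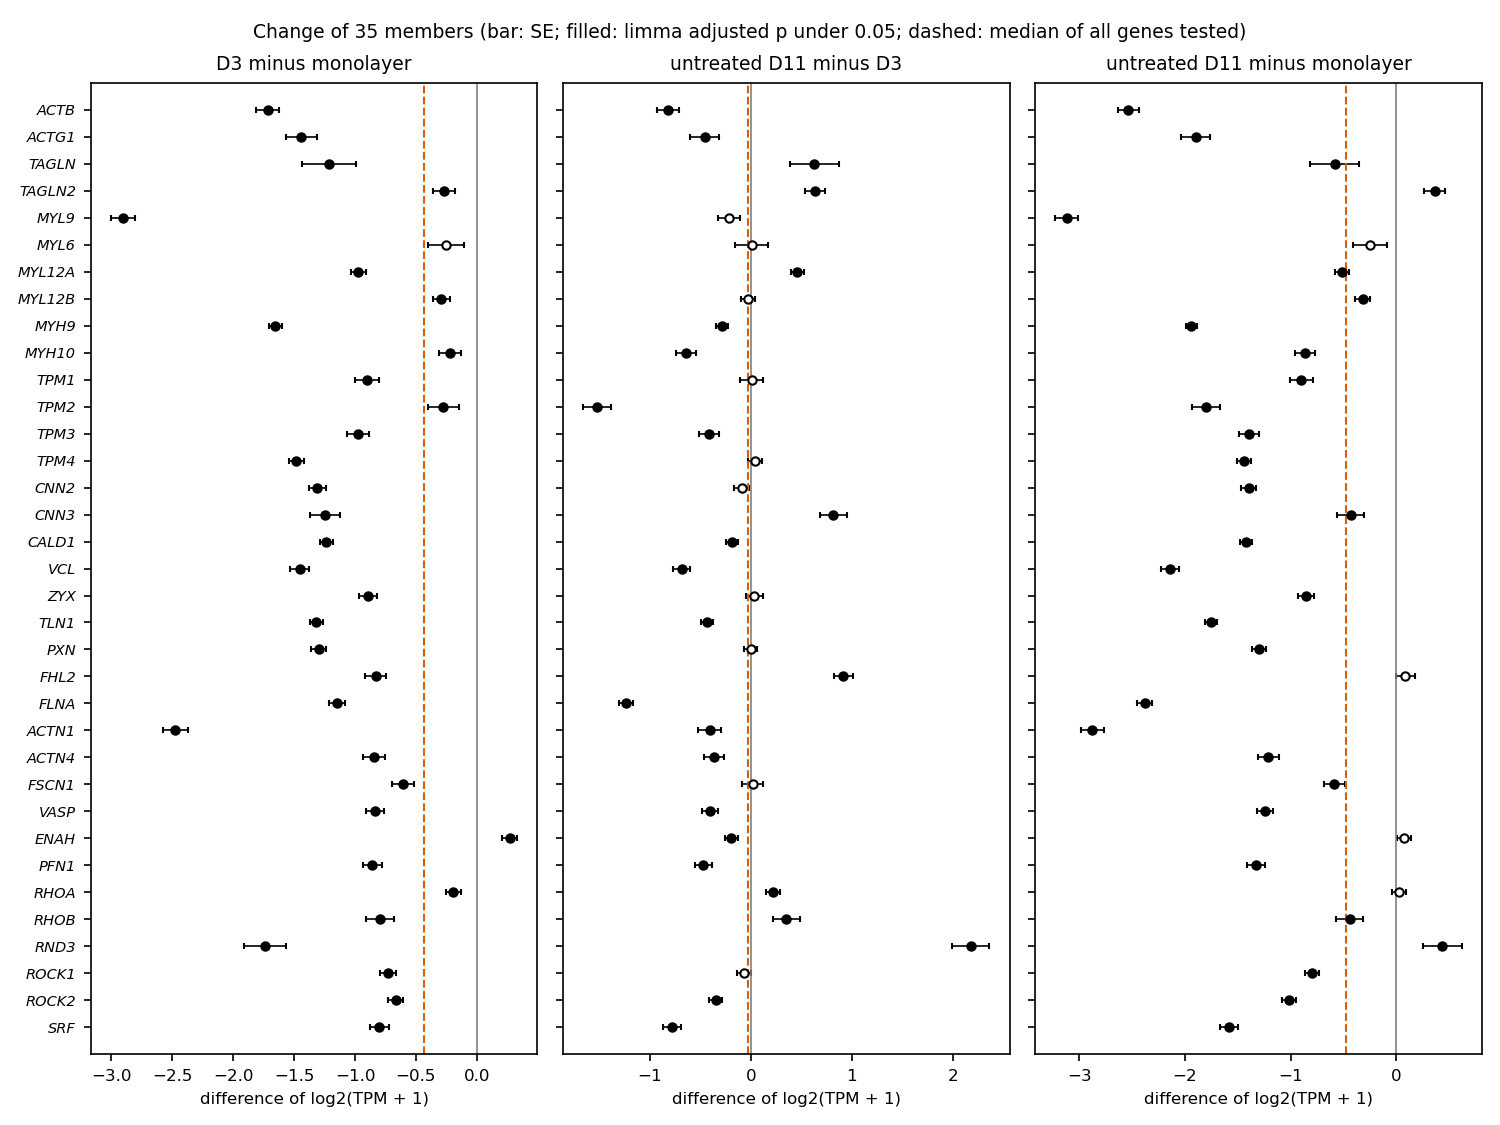
Change of each of the 35 tested members (rows) as the difference of log2(TPM + 1) (x axis) in the 3 comparisons without IL-13, with the SE as a bar, filled points where limma's adjusted p is under 0.05, and the median of all genes as a dashed line. At D3 the members lie from -2.90 to 0.27, and RND3 lies at 2.18 in the second panel.

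The size of the change differed between batches for many members. From monolayer to D3 it did so for 20 of 35 (limma interaction, adjusted p under 0.05), beside 45.2% of all genes, and for 19 without D3 libraries 4 and 7, beside 48.4%. From D3 to D11 the counts were 6, beside 23.8%, and 16 without those libraries, beside 39.5%, so the second comparison depends on them. From monolayer to untreated D11 spheroids 22 members differed, beside 48.3%. The largest differences at D3 were those of RND3, TAGLN, MYL6, RHOB, ACTG1 and CNN3, at -1.52, -1.46, 1.16, 1.08, 0.94 and 0.91 (batch 2 minus batch 1). The monolayers themselves carried much of this split. Of the 35 members, 17 were lower and 8 higher in batch 2 monolayers than in batch 1, where 35.0% and 27.1% of all genes were. Libraries of the batches did not overlap for 26, beside 56.0% of all genes. RHOB was at 311 to 359.6 TPM in batch 1 and 188.8 to 198.8 in batch 2, and CNN3 at 41.0 to 45.7 and 22.5 to 27.3. In untreated D11 spheroids 8 members were higher and 2 lower in batch 2, where 4.18% and 37.0% of all genes were. ACTB and ACTG1 were lower in batch 2 monolayers and higher in batch 2 spheroids at D11.

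With IL-13, the cytokine central to allergic inflammation of the esophagus, 9 members were lower, 7 higher and 19 did not pass. Of all genes tested 39.2% were higher and 8.49% lower, so more of the table rose than of the module. The median change was 0.06 over the members and 0.19 over all genes. After median-of-ratios scaling, which moved all genes by -0.19, 12 members were lower and 1 was higher, where 20.6% and 19.2% of all genes were. Libraries did not overlap for 5 members, CNN3, FHL2, ACTN1, TPM1 and RHOB, against 13.7% of all genes. All 5 were lower with IL-13. The count of rises was 11 without IL-13 library 1 and 6 to 9 without any other library of that group. IL-13 columns could be tied to the group but not to a batch, so no value within batches is given. By label the IL-13 group had 5 samples of batch 1 and 1 of batch 2, against 4 and 3 for untreated D11 spheroids. Batch and IL-13 are thus partly mixed in this comparison. Members that differed between batches in untreated D11 spheroids, ACTB, ACTG1, CNN3, TPM2 and RND3 among them, are less certain here.

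FHL2 had the largest fall with IL-13. Its 6 libraries ran from 5.6 through 6.5 to 8.3 TPM, below all untreated D11 libraries at 9.90 to 13.3 and overlapping the D3 range of 4.80 to 7.80. The change was -0.65 ± 0.11 (limma adjusted p = 1.4e-05), and -0.88 after median-of-ratios scaling. CNN3 ran from 14.0 through 15.9 to 19.6 TPM against 20.7 to 31.7 untreated, a change of -0.60 ± 0.15 (adjusted p = 0.00161). RHOB ran from 114 through 130.0 to 160 TPM against 176 to 212, a change of -0.59 ± 0.15 (adjusted p = 0.0015). These 3 genes and TAGLN2, whose change was -0.48 from 1003 ± 73.8 to 724 ± 104 TPM, were among the 8 that rose between D3 and D11 without the cytokine. That rise and this fall use the same untreated libraries, so the values are set side by side and not compared. RND3 was at 18.4 ± 2.38 TPM with IL-13 and 30.3 ± 7.24 without, a difference of -0.44 that did not pass (adjusted p = 0.0828) and did after median-of-ratios scaling, at -0.69 (adjusted p = 0.01).

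ACTN1, already low, ran from 4.8 through 7.15 to 7.5 TPM with IL-13, against 8.50 to 9.60 in untreated D11 spheroids, a change of -0.48 ± 0.13 (limma adjusted p = 0.00246). TPM1 ran from 14.4 through 20.1 to 22.7 TPM against 24.2 to 28.6, a change of -0.36 ± 0.12 (adjusted p = 0.0167). Both falls remained after median-of-ratios scaling, at -0.71 and -0.60. ACTB was at 308 ± 28.7 TPM against 378 ± 56.6, and its change of -0.31 (adjusted p = 0.0319) was lost without any of untreated libraries 4, 6 or 7 or IL-13 library 1. Untreated libraries 4, 6 and 7 are those of batch 2. The ACTB change also did not pass with only the 2 groups compared in the fit, at -0.19 (adjusted p = 0.0579), or with array weights, at -0.08. FSCN1 fell by 0.34, a call lost without IL-13 library 6 (adjusted p = 0.0703), and TPM4 fell by 0.23. ACTG1, at 515 ± 24.4 TPM against 638 ± 140, did not pass as deposited (adjusted p = 0.11). It passed after median-of-ratios scaling, at -0.56, and without mitochondrial genes, at -0.34 (adjusted p = 0.0427).

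SRF was the member called higher both as deposited and after median-of-ratios scaling. Its IL-13 libraries ran from 24.8 through 37.2 to 41.7 TPM, and the untreated ones from 22.6 through 25.4 to 30.6. One of the 6 IL-13 libraries, library 1 at 24.8, lay inside the untreated range and the other 5 above it. The change was 0.44 ± 0.10 (limma adjusted p = 0.000626), and 0.20 after median-of-ratios scaling (adjusted p = 0.032). Untreated SRF ran from 25.4 to 30.6 TPM in batch 1 and from 22.6 to 23.3 in batch 2. That batch difference did not pass (limma adjusted p = 0.0515). Because batch and IL-13 are partly mixed, the size of the SRF rise is less certain. TPM2 ran from 21.5 to 35.3 TPM against 13.3 to 26.3, a change of 0.49 ± 0.15 (adjusted p = 0.00964) that was 0.25 after scaling and no longer passed. The rises of PFN1, ENAH, CALD1, ZYX and MYH9, from 0.35 to 0.22, also did not pass on that scale, where those of ZYX and MYH9 turned to -0.02 and -0.03. The rise of ZYX was also lost when any of 6 single libraries was left out. RHOA, ROCK1 and ROCK2 differed by 0.06, 0.01 and 0.08 and none passed as deposited. ROCK1 was lower after scaling, at -0.20 (adjusted p = 0.011). The 6 suprabasal markers summed to between 3994 and 5778 TPM in untreated and between 11863 and 19151 TPM in IL-13 libraries at D11. Most of that sum is SPRR3, at 3395 to 5101 and 10043 to 16202 TPM. The libraries of KRT4, KRT13, CRNN and TGM3 were likewise all higher with IL-13, and those of IVL all lower, at 45.2 to 184 TPM against 335.5 to 578.5. Their part in the members' changes was not tested.

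**Figure D5:**
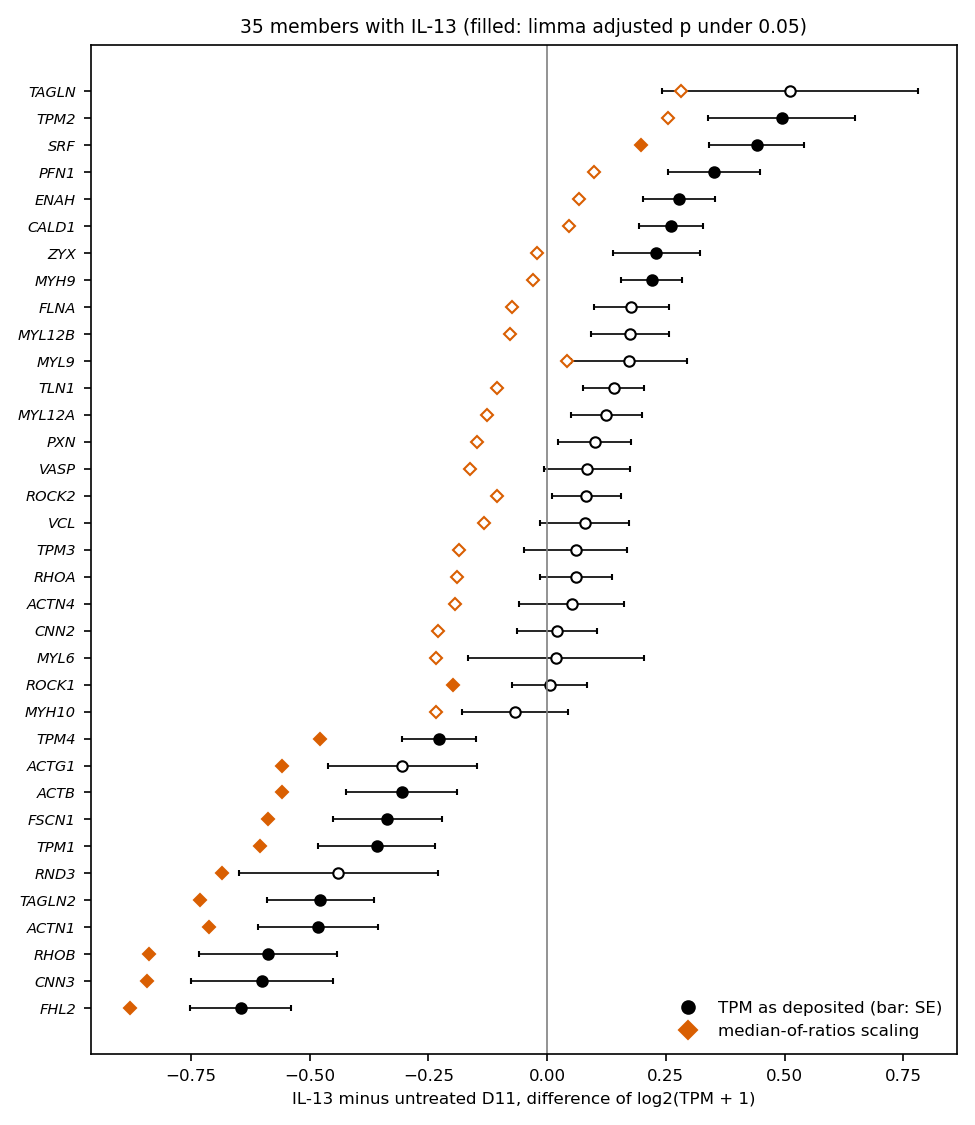
Change of the 35 tested members (rows, in order of size) with IL-13 against untreated D11 spheroids as the difference of log2(TPM + 1) (x axis), as deposited with the SE as a bar and after median-of-ratios scaling, with filled points where limma's adjusted p is under 0.05. FHL2 is at the low end of both scales, and SRF is the member called higher on both.

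Other genes of the pathway were read from 5 further lists, as deposited and not after scaling. The SRF cofactors had 6 tested genes of 8 in the table, all lower at D3 and in untreated D11 spheroids than in monolayers, where 68.2% and 63.5% of all genes were. MRTFA, one of the cofactors that actin monomers hold back, fell from 2.89 ± 0.264 to 1.46 ± 0.219 TPM. ELK3, a ternary complex factor, fell from 26.3 ± 1.31 to 6.10 ± 0.616 TPM, rose to 11.3 ± 0.85 at D11 and was at 18.3 ± 2.05 with IL-13. The last change was 0.66 ± 0.07 (limma adjusted p = 4.68e-09), with no overlap. FHL1 fell by 1.36 at D3, with changes of -0.88 in batch 1 and -1.82 in batch 2. From D3 to D11 ELK4 fell by 0.50 and MRTFB fell by 0.47, and ELK1 rose by 0.33 with IL-13.

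Regulators of myosin and ROCK had 16 tested genes. Of these 9 fell and 4 rose at D3, beside 68.2% and 12.7% of all genes, with a median of -0.32. In the step to D11, 8 rose and 3 fell, beside 33.6% and 35.8%. LIMK1, the kinase that inactivates cofilin, fell from 12.8 ± 1.26 to 4.89 ± 0.506 TPM. DAPK3, a kinase that phosphorylates the myosin light chain, fell by 1.28 and rose by 0.92, from 34.8 ± 1.58 to 14.0 ± 2.17 and 27.1 ± 5.08 TPM. PPP1CB, the catalytic subunit of myosin phosphatase, rose from 50.1 ± 5.69 at D3 to 120 ± 14.6 TPM at D11, by 1.23 ± 0.07. CIT, the citron kinase of cell division, fell from 1.47 ± 0.316 to 0.157 ± 0.0535 TPM in that step. At D3 the rises were led by PPP1R14C and DAPK1, at 0.67 and 0.52. With IL-13, 4 of the 16 rose and 3 fell (39.2% and 8.49% of all genes), led by the light chains MYL5 and MYL6B at 1.01 and 0.49 and by DAPK3 and MYLK at -0.40 and -0.28.

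Small GTPases and their exchange factors had 23 tested genes, 20 lower and 2 higher at D3, beside 68.2% and 12.7% of all genes. The larger of the rises was the largest D3 change in these lists. RHOV, an atypical GTPase related to CDC42, went from 0.74 ± 0.499 TPM in monolayers to 96.5 ± 42.6 at D3 and 195 ± 38.7 in untreated D11 spheroids. The D3 rise was 5.73 ± 0.21 on the log2 scale (limma adjusted p = 4.2e-21), with 5.42 in batch 1 and 5.97 in batch 2. RHOD rose by 0.53. ARHGAP29, which turns RhoA off, fell from 15.2 ± 1.43 to 2.12 ± 0.286 TPM, and ARHGDIB, a GDP dissociation inhibitor, from 59.5 ± 22.8 to 14.1 ± 5.95. From D3 to D11, 11 rose and 5 fell, beside 33.6% and 35.8%. The RhoA exchange factor NET1 rose from 31.8 ± 3.31 to 105 ± 12.1 TPM and RAC2 from 26.0 ± 6.89 to 57.2 ± 7.90, and ECT2, the exchange factor of cytokinesis, fell by 1.19. With IL-13, 5 rose and 3 fell, beside 39.2% and 8.49%. NET1 was then at 50.1 ± 6.36 TPM, a change of -1.10 ± 0.11 with no overlap, RAC2 fell by 0.72, and RHOQ and ARHGEF11 rose by 0.63 and 0.39.

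Actin nucleation and turnover had 33 tested genes, 29 lower and none higher at D3 (68.2% and 12.7% of all genes), with a median of -0.49 beside -0.44 for all genes. In the step to D11, 17 were higher and 7 lower (33.6% and 35.8%). The formin FMNL3 fell from 9.95 ± 1.38 to 1.44 ± 0.292 TPM. GSN, which severs and caps filaments, rose from 8.68 ± 2.94 at D3 to 26.9 ± 2.36 TPM and WASL, an activator of the Arp2/3 complex, from 6.70 ± 1.15 to 15.4 ± 1.05. The Arp2/3 subunits ARPC1B and ARPC4 fell in the same step, with changes of -1.10 and -0.68. With IL-13, 12 rose and 3 fell (39.2% and 8.49%), a share of rises near that of all genes. ARPC5L and ARPC4 rose by 0.70 and 0.68, and the formins FMNL2 and DIAPH1 fell, at -0.38 and -0.27, each with no overlap.

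Other focal adhesion and stress fibre proteins had 34 tested genes, 31 lower and 1 higher at D3 (68.2% and 12.7% of all genes), with a median of -0.94 next to the -0.90 of the members. LCP1, a filament bundler, fell from 7.60 ± 0.98 to 0.522 ± 0.164 TPM and the paxillin relative TGFB1I1 from 75.8 ± 24.1 to 15.1 ± 4.47. The rise was that of TNS4, at 0.29, with -0.19 in batch 1 and 0.70 in batch 2. From D3 to D11, 15 rose and 10 fell (33.6% and 35.8%), led by AMOTL2 at 1.14 and TES at 0.90 and by ANLN, an actin binder of the cleavage furrow, at -2.15 and TRIP6 at -0.64. Against monolayers, EZR, which links actin to the membrane, was higher in untreated D11 spheroids, at 71.2 ± 3.94 against 45.6 ± 6.95 TPM. With IL-13, 5 rose and 7 fell (39.2% and 8.49%). SYNPO, a partner of alpha-actinin, rose from 15.4 ± 1.87 to 33.0 ± 3.70 TPM, by 1.18 ± 0.14 with no overlap, FHL3 rose by 0.53, and ILK fell by 0.45.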

How the data were processed

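The authors deposited TPM values (length-scaled shares of a fixed total, rounded to 1 decimal) for 19345 gene symbols in 32 libraries. Per the submitters' processing notes, hg38 was used. Not given in the sources used here are which aligner, annotation and quantification tool served and whether counting used strand. Because TPM holds no depth, reads and counting error are unknown and precision rests on the spread between libraries. All values share 1 total per library, so a rise of abundant transcripts lowers all others.

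By name, 26 columns could be tied to a sample. The 6 IL-13 columns are numbered differently from their samples, so only their group is known, and the fit gave each the share of that group in batch 2. Library numbers are column numbers.

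Differences were tested with limma 3.58.1 (R 4.3.3, trend) on log2(TPM + 1), over 12221 genes with at least 1 TPM in at least 6 libraries, with group and batch as terms and all 32 libraries in 1 fit. Adjusted p-values are Benjamini-Hochberg over all those genes, with a threshold of 0.05. Tests of the difference between batches used the 26 matched libraries. The fit was tested on simulated data. Within groups, libraries correlated at r = 0.952 to 0.995 and at most 3.56% of values were equal in any pair, so all were counted singly.

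The members and lists were chosen with earlier results of these data known. Values are given in full for the 5 largest rises and falls past the threshold in each comparison, for SRF, ACTB, ACTG1, RHOA, ROCK1 and ROCK2, and for members whose direction turned after median-of-ratios scaling, and from each other list for the 2 largest rises and falls. Other members are given by range or mean. A gene that the rule selects is not reported here. Gene coordinates came from GENCODE release 29 on hg38, promoter sequences from RefSeq on GRCh38.p14. Shared 50-mers were counted against all GENCODE transcripts. Alternatives were pseudocounts, filters, scalings, batch terms and batches alone, sample weights, a replicate block and leaving out libraries. The exchanged batch labels of 2 D3 libraries, the batch contrast within groups and the interaction without those libraries were added after seeing the data.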

Additional observations from a re-analysis of the deposited data

Results flagged for a closer look

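In 9 of 140 sets of values (1 member in 1 group), or 6.43%, 1 library stood apart from the rest by a gap that chance gives in about 1 of 20 sets. Of these, 5 were values of IL-13 library 1. In that library MYL6 was at 530.9 TPM where the others ran from 352.3 to 403.4, and TPM3 was at 30.3 where they ran from 40.4 to 43.3. VCL was at 3.5 TPM there (others 5.0 to 5.8), PFN1 at 1103.2 (others 1549.8 to 1803.5) and ROCK1 at 2.9 (others 3.6 to 4.0). The count of members higher with IL-13 was 11 without that library and 7 with it. Among untreated D11 spheroids, all batch 2 libraries lay above those of batch 1 for MYL6 and below them for TPM3, VCL, PFN1 and ROCK1. ACTB was higher in batch 2 there, but IL-13 library 1 had the lowest ACTB of its group, at 259.7 TPM. By label 1 IL-13 sample was of batch 2, and whether library 1 is that sample was not tested. FSCN1 was at 321.7 TPM in IL-13 library 6, where the others ran from 434.5 to 504.8, and MYH10 at 2.3 in IL-13 library 3, where they ran from 1.7 to 1.9. In untreated D11 spheroids VASP was at 32.7 TPM in library 7 (others 39.2 to 43.6). At D3 CALD1 was at 6.6 TPM in library 2 (others 5.4 to 5.8).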

How the results depend on the processing

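Counts of members kept within 1.5 times of the reported ones under both pseudocounts, both filters, batch 1 alone, fits on only the 2 groups compared, and fits without D3 libraries 4 and 7 or with their batch labels exchanged. The exceptions by setting are counts of members higher unless said otherwise. After median-of-ratios scaling they were 4 for D3 against monolayer, 6 for untreated D11 against monolayer and 1 for IL-13, and after quantile normalization 2, 4 (D11 against D3), 4 (D11 against monolayer) and 2 (IL-13). Without mitochondrial genes D11 against D3 had 3 higher and 29 lower, and D11 against monolayer 0 higher and 34 lower in limma, with no positive change in any of the 35 at any p. Batch 2 alone gave 5 for D11 against D3, no batch term 1 for D11 against monolayer, and array weights 4 for D11 against monolayer and 14 for IL-13. Leaving out 1 library gave 1 to 1 higher and 31 to 33 lower for D3 against monolayer, 7 to 8 and 17 to 18 for D11 against D3, 1 to 2 and 28 to 29 for D11 against monolayer, and 6 to 11 and 8 to 9 for IL-13. Scalings differ in the total they set equal, and for other settings the cause was not tested.

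Members that passed the test as deposited or in the other setting changed sign as follows. Sign changes that passed in neither are not listed. For D3 against monolayer, median-of-ratios scaling gave TAGLN2 0.27, MYL12B 0.25, MYH10 0.21, TPM2 0.26 and RHOA 0.34, quantile normalization MYH10 0.22, TPM2 0.11 and RHOA 0.20, and batch 2 alone MYL6 0.30, TPM2 0.029 and RHOA 0.011. For D11 against D3, quantile normalization gave TAGLN2 -0.049, MYL6 -0.56, TPM4 -0.25, ZYX -0.29, FSCN1 -0.61 and RHOB -0.013. Removal of mitochondrial genes gave MYL6 -0.59, MYL12A -0.13, TPM1 -0.58, TPM4 -0.55, ZYX -0.56, FSCN1 -0.58, RHOA -0.37 and RHOB -0.24, and array weights MYL6 -0.76, FSCN1 -0.28, RHOB -0.18 and ROCK1 0.18. For D11 against monolayer, median-of-ratios scaling gave MYL12A 0.083, MYL12B 0.27, CNN3 0.15, FSCN1 0.010 and RHOB 0.15, and quantile normalization TAGLN2 -0.13. Removal of mitochondrial genes gave TAGLN2 -0.21, FHL2 -0.46, ENAH -0.42, RHOA -0.55 and RND3 -0.12, batch 1 alone TAGLN 0.27, batch 2 alone MYL6 0.45, CNN3 0.18 and RND3 -0.19, and array weights TAGLN 0.10. With IL-13, median-of-ratios scaling gave MYH9 -0.029, ZYX -0.021 and ROCK1 -0.20, and quantile normalization MYH9 -0.016, CNN2 -0.18 and ROCK1 -0.20.

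Libraries with the same number were not pairs: their deviations correlated at -0.44 to 0.36 over 9 pairs, -0.16 to 0.16 over 7 and -0.02 to 0.06 over 7 in the first 3 comparisons, with 1, 1 and 0 libraries best correlated with their own number. With the number as a replicate block, 1 higher and 32 lower, 7 and 17, and 2 and 29 members were called. No paired analysis was possible for IL-13 because its columns share no numbers with samples. Depth is unknown, so what it limits could not be assessed.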
